A study of Mus musculus with 34 samples.

Results

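Open chromatin was mapped by ATAC-seq in mouse embryonic fibroblasts (MEFs) with knockdown of Brg1, 2 days after induction of Etv2 with doxycycline, and was set against the same knockdown cells kept for 2 days without doxycycline. In ATAC-seq a transposase cuts and tags accessible DNA, and a summit is the base of highest signal within a called peak, which can hold several. The induced list held 37772 summits and the uninduced list 44493 on chromosomes 1 to 19 and X, out of 707465 summits in the 19 lists of the series. A summit counted as shared if the other list held one at most 250 bp away. By this rule 11451 summits were induced-only and 18528 were uninduced-only, and the remaining 26321 summits of the induced list and 25965 of the uninduced list were shared.

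The induced group was MEF_Brg1_KD_Dox_D2 and its control was MEF_Brg1_KD_NoDox_D2. Each has 2 labelled replicates (4 of the 34 samples of the series), and both replicates of a group name the same deposited list. The protocols call the fibroblasts iHA-Etv2 MEFs, and all cells of both groups carry the Brg1 knockdown, so doxycycline is the labelled difference. The labels do not say how Brg1 was knocked down or whether replicates came from separate cultures. With 1 list per group there is no replicate error, no test and no p-value, and "induced-only" describes list membership. Shares are given with exact Clopper-Pearson 95% intervals, which cover counting error only. Summits are scored by −log10 q, and both lists begin just above 1.3, a q value of 0.05. Read depth is unknown from these files. The score grows with depth, so that a summit in 1 list only can have missed the threshold in the other.

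Etv2 is an ETS-family transcription factor that binds DNA with a GGAA core and directs mesoderm to endothelial and blood fates, and forced expression can convert fibroblasts towards endothelium. ETS sites next to a forkhead site form a FOX-ETS composite element known from endothelial enhancers. Brg1, encoded by Smarca4, is an ATPase of the SWI/SNF complexes, which slide and evict nucleosomes. Genes of fibroblasts, such as those of the collagens, and of AP-1, a family of bZIP factors that binds many fibroblast enhancers, form the background on which Etv2 acts in these cells.

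Promoters that carried a summit with doxycycline and none without are shown first, because they are the places where summits and sequence could be read together. A promoter here is the RefSeq stretch from 250 bases before to 50 after a transcription start on GRCm38.p6. Each is printed 5′ to 3′ in the direction of its gene. Capitals mark AGGAAG, a form of the ETS site, and AACAGGAA, the letters searched for the FOX-ETS composite, on either strand (as CTTCCT and TTCCTGTT when on the other strand). The promoters were picked after their values were seen, and for holding such letters. Those of Adgrf5, Myct1 and F2rl3 belong to genes known from endothelium or platelets. Adgrf5, an adhesion receptor of endothelial cells, lies at chr17:43360181-43360480 (+ strand) and has its summit 85 bases before the start with a score of 16.7. Myct1, an endothelial membrane protein gene, lies at chr10:5593478-5593777 (+) and has its summit 108 bases before the start with a score of 7.97. F2rl3, which encodes a thrombin receptor of platelets, lies at chr8:72761409-72761708 (+) and has its summit 160 bases before the start with a score of 4.35, 1208 bp from the nearest uninduced summit.
Adgrf5: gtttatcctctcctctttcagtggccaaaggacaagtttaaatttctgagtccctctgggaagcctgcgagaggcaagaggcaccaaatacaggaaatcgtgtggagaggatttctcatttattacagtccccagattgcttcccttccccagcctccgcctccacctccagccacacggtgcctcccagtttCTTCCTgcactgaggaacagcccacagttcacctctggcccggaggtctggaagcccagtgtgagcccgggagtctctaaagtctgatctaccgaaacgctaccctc
Myct1: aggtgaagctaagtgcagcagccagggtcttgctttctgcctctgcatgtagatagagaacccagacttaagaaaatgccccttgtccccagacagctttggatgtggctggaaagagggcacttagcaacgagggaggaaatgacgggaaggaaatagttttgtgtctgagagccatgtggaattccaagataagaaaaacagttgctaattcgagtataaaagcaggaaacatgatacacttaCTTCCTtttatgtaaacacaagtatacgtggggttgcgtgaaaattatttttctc
F2rl3: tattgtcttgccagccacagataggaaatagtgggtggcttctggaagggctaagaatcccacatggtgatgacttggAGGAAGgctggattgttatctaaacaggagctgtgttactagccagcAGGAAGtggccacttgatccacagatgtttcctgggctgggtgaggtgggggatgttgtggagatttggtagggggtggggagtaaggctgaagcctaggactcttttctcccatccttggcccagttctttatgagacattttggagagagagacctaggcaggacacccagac

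None of these 3 summits had a partner in the other uninduced fibroblast lists, and all 3 were found in MEFs without knockdown 1 day after induction and in induced embryoid bodies but not in uninduced embryoid bodies. The next 3 promoters belong to genes of other roles. Arhgef7, a guanine nucleotide exchange factor for Rac and Cdc42, lies at chr8:11779034-11779333 (+), and its summit (score 7.80) lies 23 bases before the start. Gcnt1, a glycosyltransferase that branches O-glycans, lies at chr19:17339456-17339755 (− strand), and its summit (score 7.57) lies 250 bases before the start. Lyz2, the lysozyme gene of myeloid cells, lies at chr10:117282223-117282522 (−), and its summit (score 7.37) lies 40 bases after the start. In the Arhgef7 promoter the composite letters begin 15 bases before the start, close to the summit.
Arhgef7: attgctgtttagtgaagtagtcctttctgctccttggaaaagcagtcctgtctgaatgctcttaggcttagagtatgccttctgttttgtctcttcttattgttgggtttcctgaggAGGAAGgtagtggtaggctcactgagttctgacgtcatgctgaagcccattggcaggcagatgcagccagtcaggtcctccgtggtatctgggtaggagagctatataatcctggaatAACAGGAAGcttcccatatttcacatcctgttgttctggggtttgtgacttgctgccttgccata
Gcnt1: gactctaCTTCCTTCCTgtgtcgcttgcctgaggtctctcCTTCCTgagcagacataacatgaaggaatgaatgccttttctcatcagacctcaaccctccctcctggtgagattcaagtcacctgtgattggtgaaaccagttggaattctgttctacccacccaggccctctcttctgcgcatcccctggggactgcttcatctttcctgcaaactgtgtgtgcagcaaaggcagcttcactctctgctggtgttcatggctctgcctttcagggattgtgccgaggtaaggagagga
Lyz2: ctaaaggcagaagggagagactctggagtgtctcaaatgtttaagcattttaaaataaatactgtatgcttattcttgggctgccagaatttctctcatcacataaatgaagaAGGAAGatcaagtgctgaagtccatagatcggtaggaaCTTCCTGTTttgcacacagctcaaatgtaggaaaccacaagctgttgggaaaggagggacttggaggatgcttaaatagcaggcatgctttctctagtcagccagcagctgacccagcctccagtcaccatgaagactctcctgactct

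The Lyz2 promoter holds the composite letters as well, beginning 98 bases before the start on the opposite strand. Gimap6, a GTPase gene of lymphocytes, lies at chr6:48708195-48708494 (−) and is shown because its promoter holds the composite letters at 2 places. Its summit scored 16.2 and lay 98 bases before the start. Unlike the others it was also listed in uninduced MEFs without knockdown.
Gimap6: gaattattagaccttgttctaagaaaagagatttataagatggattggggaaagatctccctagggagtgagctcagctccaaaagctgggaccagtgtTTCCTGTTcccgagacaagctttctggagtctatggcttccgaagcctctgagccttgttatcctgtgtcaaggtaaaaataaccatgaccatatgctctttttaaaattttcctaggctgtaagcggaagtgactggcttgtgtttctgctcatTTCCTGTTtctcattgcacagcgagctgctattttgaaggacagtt

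The unmatched summits were mostly weak ones. Induced-only summits made up 30.3% (29.9 to 30.8%) of the induced list, and uninduced-only summits 41.6% (41.2 to 42.1%) of the uninduced list. Their median score was 3.86 for induced-only summits, against 11.1 for shared summits of the same list. In the uninduced list the medians were 3.49 for uninduced-only and 13.8 for shared summits. A score of at least 10 was reached by 13.2% of induced-only and 9.54% of uninduced-only summits. Cut into 10 equal bins by score, the bin of highest scores had 2.59% of unmatched summits in the induced list and 2.65% in the uninduced list, and that of lowest scores 62.9% and 85.1%.

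**Figure D1:**
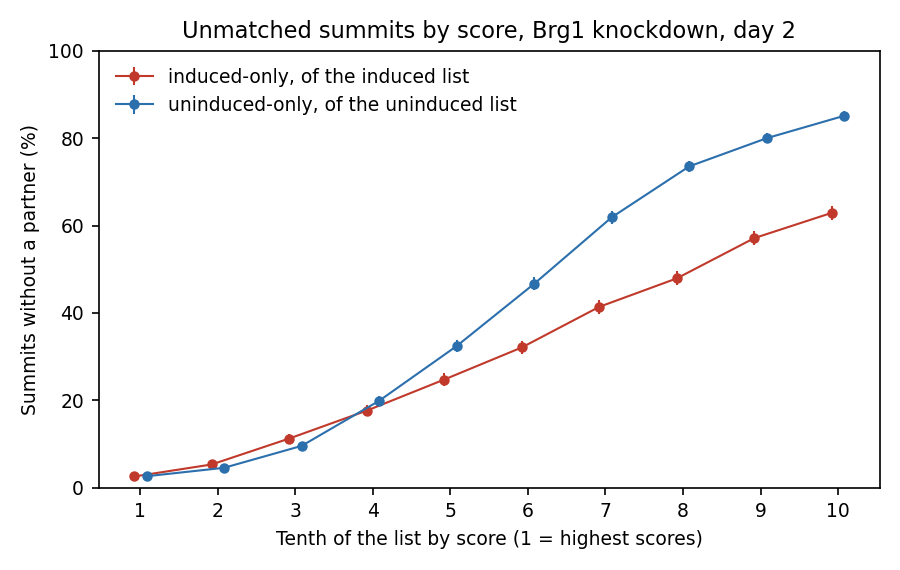
Share of summits without a partner within 250 bp (y axis, %) in 10 equal bins of its own list by score (x axis, 1 = highest scores), with exact 95% intervals. Red is the induced list and blue the uninduced list of day-2 Brg1-knockdown MEFs. The curves lie close together over the 4 highest bins and part below them, ending at 62.9% and 85.1%.

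With equal numbers of summits the surplus on the uninduced side nearly closed. The 37772 highest-scoring summits of each list gave 12481 induced-only (33.0%) and 12901 uninduced-only summits (34.2%). The 10000 highest-scoring summits of each list gave 2432 and 2493. Looked up in the whole of the other list, 550 of the 10000 strongest induced summits (5.50%, 5.06 to 5.96%) and 402 of the 10000 strongest uninduced summits (4.02%, 3.64 to 4.42%) had no partner. Almost all strong summits of either list were therefore listed in both.

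Some of the unmatched summits lay close to a summit of the other list. Of induced-only summits 27.9% lay at most 500 bp from an uninduced summit, and of uninduced-only summits 16.2% lay that near to an induced one. At the far end, 25.5% of induced-only and 45.6% of uninduced-only summits were more than 20000 bp from any summit of the other list. The median distance was 4768 bp for induced-only and 15623 bp for uninduced-only summits. With partners allowed within 1000 bp, 6945 induced-only and 14061 uninduced-only summits were left.

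The summits of both unmatched classes lay away from promoters. A promoter position here means within 1 kb of a RefSeq start or, where the reference gave none, of a gene end. It held 17.9% (17.2 to 18.6%) of induced-only and 12.4% (11.9 to 12.8%) of uninduced-only summits, against 42.7% of shared summits of the induced list. Inside genes lay 39.9% and 35.2%, and between genes 42.2% and 52.4%. The promoter surplus of induced-only summits was not seen farther from the other list. Among summits over 1 kb from a partner, promoters held 5.54% (5.02 to 6.11%) of induced-only and 6.36% (5.96 to 6.77%) of uninduced-only summits. The promoter share of induced-only minus uninduced-only summits was also negative, −1.60 percentage points, when both lists were cut to scores of at least 10. More than 50 kb from any protein-coding gene lay 1940 induced-only (16.9%) and 5148 uninduced-only summits (27.8%), against 11.3% of shared summits of the induced list.

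The uninduced surplus was spread unevenly over chromosomes. Induced-only shares ran in a narrow band between 27.4% of the induced summits on chromosome 11 and 34.2% on chromosome 12. Uninduced-only shares ran between 32.5% on chromosome 9 and 51.3% on chromosome 6. The 9 chromosomes with the highest uninduced-only share, picked after the values were seen, were 6, 15, 14, 17, 8, 10, 1, 3 and X. On these, 31.0% of induced and 46.8% of uninduced summits were unmatched, and on the other 11 the shares were 29.7% and 35.3%. These 9 chromosomes held 50.6% of the induced list and 55.2% of the uninduced list. They held between 49.0% and 51.6% of the fibroblast lists of days 0 and 1 and of the MEF lists without knockdown, and 57.6% and 57.9% of the induced and uninduced knockdown lists of day 7.

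**Figure D2:**
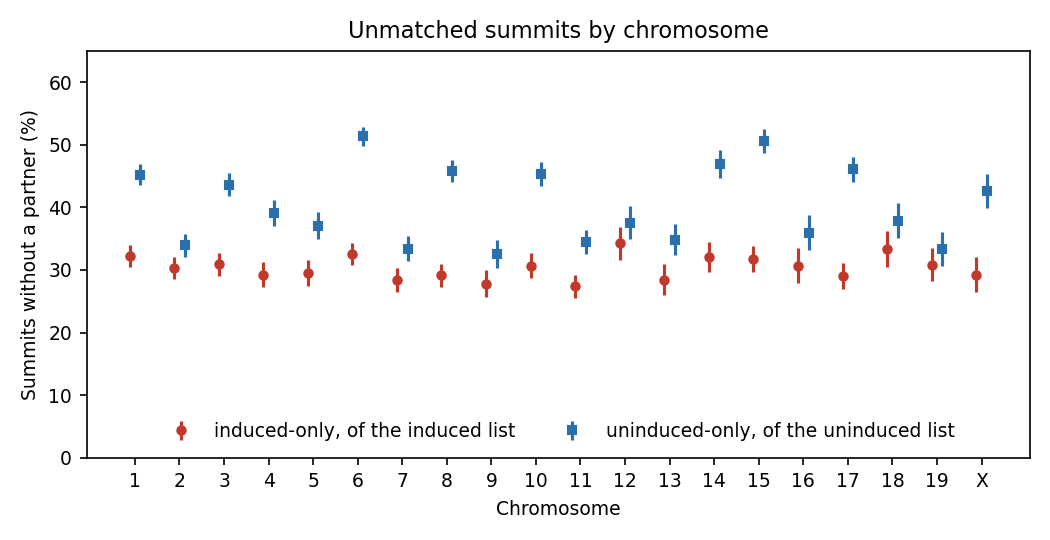
Share of summits without a partner (y axis, %) on each chromosome (x axis), with exact 95% intervals. Red circles give induced-only summits as a share of the induced list and blue squares uninduced-only summits as a share of the uninduced list. The red points stay between 27.4% and 34.2%, whereas the blue ones range from 32.5% to 51.3%, the highest on chromosomes 6 and 15.

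The highest-scoring unmatched summits lay in a few regions of extreme signal. All 10 of the highest-scoring induced-only summits, with scores between 908 and 12861, lay 254 to 555 bp from an uninduced summit. Of these, 8 lay at the start of chromosome 9, where Alkbh8 is the nearest gene, and 2 lay nearest to Tcte2 on chromosome 17. Of the 10 highest uninduced-only summits 3 lay in such regions, and the others included summits near Smgc (461), Sfi1 (101), Tmem267 (97.0) and repeatedly near 9530057J20Rik and Gm21119 on chromosome 8. Leaving out 104 bins of 10 kb with such signal removed 159 induced-only and 184 uninduced-only summits. Outside these bins and over 1 kb from a partner, the highest induced-only scores were 152 (48467 bp from Tcp10c), 141 (372580 bp from Csmd1) and 81.1 (in Kctd16). The highest uninduced-only scores were 83.0 (in Stau2), 35.8 (in Bcas3) and 33.5 (193436 bp from Nrp1). The induced-only summits named for Tcp10c, Csmd1 and Kctd16 were also listed in knockdown MEFs on day 0 and in uninduced MEFs.

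Lists not used to define the classes separated them. The share of induced-only summits that also appeared in the induced knockdown list of day 1 was 25.4% (24.6 to 26.2%), against 11.8% (11.3 to 12.3%) of uninduced-only summits. In the uninduced knockdown list of day 1 the order was the other way, with 23.7% of induced-only and 28.6% of uninduced-only summits. Cut to the 26882 summits of the induced day-1 list, the uninduced day-1 list held 15.3% and 17.4%. In the knockdown list of day 0 the shares were 26.3% and 27.7%. On day 7 the knockdown lists hardly separated the classes. The induced day-7 list held 8.10% of induced-only and 8.44% of uninduced-only summits, and the uninduced day-7 list 7.57% and 7.67%.

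The induced MEF lists without knockdown held more of the induced-only than of the uninduced-only summits as well. On day 1 of induction the shares were 46.4% (45.4 to 47.3%) and 23.5% (22.9 to 24.1%), on day 2 they were 20% and 10.5%, and on day 7 10.5% and 7.24%. Cells of day 7 sorted for Flk1, the receptor encoded by Kdr and a marker of endothelial and blood progenitors, held 30.2% (29.4 to 31.1%) and 10.7% (10.2 to 11.1%). The uninduced MEF list also held more of the induced-only summits, 43.3% against 32.3% of uninduced-only ones, and still did when cut to the 50015 summits of the induced day-1 list (36.4% and 26.6%). Presence in an induced list therefore includes summits that uninduced cells without knockdown have too. Scores also differ in written form: those with over 6 digits are 0% of each knockdown list and 27.6 to 52.1% of the MEF lists without knockdown. Thus processing cannot be told apart from knockdown between them.

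**Figure D3:**
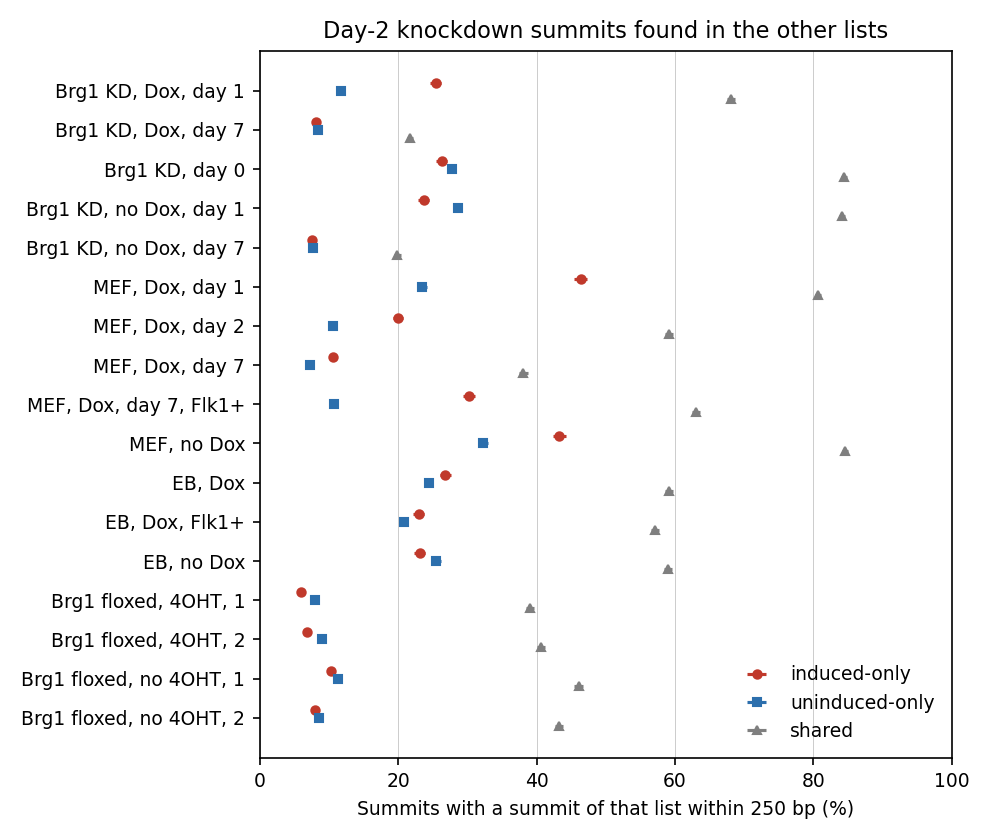
Share of day-2 knockdown summits (x axis, %) that have a summit within 250 bp in each of the 17 other lists (y axis), with exact 95% intervals. Red circles are induced-only, blue squares uninduced-only and grey triangles shared summits of the induced list. The red points lie to the right of the blue ones by the widest margin in induced MEFs of day 1 (46.4% against 23.5%) and in Flk1-positive cells (30.2% against 10.7%).

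Summits that recurred with induction form a small, mostly distal set. A total of 4813 induced-only summits (42.0%) had no partner in the 4 other uninduced fibroblast lists. Of these, 244 were listed also in the induced knockdown list of day 1, in induced MEFs of day 1 and in Flk1-positive cells. This set was defined after other values had been seen. By place, 18 lay at promoters, 120 inside genes and 106 between genes, and 210 were over 1 kb from any uninduced summit. Their median score of 9.02 was higher than the 3.86 of all induced-only summits. In embryoid bodies, which its definition did not use, 78 of the 244 (32.0%, 26.2 to 38.2%) were listed 12 h after induction and 23 (9.43%, 6.07 to 13.8%) without induction, and 59 against 4 were listed in one of the pair alone. Of the 4813, induced embryoid bodies held 16.8% and uninduced ones 10.8%, and of all induced-only summits they held 26.8% and 23.1%. The induced MEF list of day 2 held 88 of the 244, and the induced knockdown list of day 7 held 7.

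The mirrored set behaved differently in embryoid bodies. Of the uninduced-only summits, 11960 (64.6%) had no partner in the 6 other induced fibroblast lists. Of those, 374 were listed in the day-0 and uninduced day-1 knockdown lists and in uninduced MEFs. Induced embryoid bodies held 76 of them (20.3%, 16.4 to 24.8%) and uninduced ones 82 (21.9%, 17.8 to 26.5%). Their median score was 5.82, and 304 were over 1 kb from an induced summit.

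Among the recurrent induced-only summits, the highest score was 37.7 at chr3:60469089, 3470 bp from Mbnl1, a splicing regulator, and 24718 bp from the nearest uninduced summit. That summit was listed in both induced embryoid body lists, in all other induced fibroblast lists and in no uninduced list. Fbln5, an elastic fibre gene, had a recurrent summit at chr12:101740355 (score 25.9). St8sia1, a ganglioside synthase gene, had one inside the gene at chr6:142932385 (23.0), and Cd9, a tetraspanin gene, one at chr6:125482215 (22.4). Among recurrent uninduced-only summits the highest were 25.2 nearest to Tsc22d2, 24 nearest to Gm40363, which was also listed in every embryoid body list, 22.2 in Glg1 and 21.2 in Kat6b, a histone acetyltransferase gene. These summits are among the highest-scoring of each set and were named after their values were seen.

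A recurrent induced-only summit lay within 50 kb of 400 of 21631 protein-coding genes (1.85%). The set was defined in part by Flk1-positive cells, so its share near endothelial genes is not independent of that choice. Gene length was not matched either. Of the endothelial receptor genes 3 of 14 had a recurrent summit within 50 kb. They were Flt4, the receptor of lymphatic growth factors (score 12.4 at chr11:49658989), Nrp1, a co-receptor of VEGF (5.65 at chr8:128387395), and Plxnd1, a semaphorin receptor (5.35 at chr6:115996530). Those at Nrp1 and Plxnd1 were also listed in induced and not in uninduced embryoid bodies. Of the endothelial surface genes 4 of 22 had one, namely Adgrf5 at the promoter shown above (16.7), Ecscr, a regulator of endothelial migration (6.91), Podxl, a sialomucin (3.23), and Vwf, the gene of von Willebrand factor (3.10). The 20 endothelial transcription factors, the 12 Notch genes and the 21 blood progenitor genes had none. Shares above 1.85% were not limited to endothelial lists. Of 10 epithelial markers 2 had one, as the adjacent keratin genes Krt8 and Krt18 shared 1 recurrent summit (15.2). Of 6 adipocyte markers 1 had one, namely Cebpa, a regulator of fat cells (8.26). Of 16 housekeeping genes 2 had one, Tubb5 (1.86) and Polr2a (17.3), 322 and 316 bp from an uninduced summit. Single recurrent summits also lay near Skil (13.3) and Tead4 (2.06). The mesenchymal, fibroblast matrix, AP-1 and SWI/SNF lists had none. A recurrent uninduced-only summit lay within 50 kb of 706 genes (3.26%). Among them were 2 of 12 contractile and TGF-beta response genes, 4 of 29 fibroblast matrix genes and 3 of 21 blood progenitor genes. So were 2 of 16 housekeeping genes, 1 of 10 macrophage markers, 2 of 22 endothelial surface genes and 1 of 12 Notch genes. Of the transcription factors, 1 of 18 mesenchymal and 1 of 20 endothelial ones had such a summit. The 14 endothelial receptors and the remaining lists had none.

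Counted over all unmatched summits, endothelial genes did not stand on the induced side. Of all 21631 genes, 25.9% had more induced-only than uninduced-only summits within 50 kb and 37.6% had fewer, with a median difference of 0. The 14 endothelial receptors split into 4 with more and 7 with fewer (median −0.5), the 22 surface genes into 5 and 12 (median −1), and the 20 transcription factors into 2 and 11 (median −1). With equal numbers of summits the background was 33.9% and 26.7%, and the same lists gave 5 and 5, 5 and 9, and 6 and 10. On the 11 chromosomes with the lower uninduced-only shares the background was 27.3% and 32.5% of 12622 genes. There, 1 of 11 endothelial transcription factors had more induced-only summits and 7 had fewer, 2 of 11 surface genes had more and 7 had fewer, and the 8 receptors split evenly into 3 and 3.

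Positions show what lies behind such counts at single endothelial genes. Plvap, a gene of endothelial diaphragms, had 6 induced-only and 2 uninduced-only summits within 50 kb. Of these 6, 5 lay 266 to 540 bp from an uninduced summit, and the highest (13.7 at chr8:71488550) was listed in the day-0 and uninduced day-1 knockdown lists as well. Eng, which encodes the TGF-beta co-receptor endoglin, had 4 induced-only and 2 uninduced-only summits, and its highest (19.9 at chr2:32727602) was also listed in uninduced knockdown MEFs of days 0 and 1. Flt1, a VEGF receptor, had induced-only summits at chr5:147590151 (6.26) and chr5:147707706 (11.1) and no uninduced-only one. Both were also in the day-0 knockdown list and in uninduced MEFs. At these 3 genes no induced-only summit belonged to the recurrent set.

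A few other endothelial genes, picked for their induced-only summits from lists that leaned to the uninduced side, had summits with part of the recurrent pattern. Neither Klf2 nor Emcn had a recurrent summit. Klf2, a flow-responsive transcription factor, had 2 induced-only summits and no uninduced-only one. The one at chr8:72281777 (score 13), 14004 bp from the nearest uninduced summit, was listed elsewhere in induced knockdown MEFs of day 1 and Flk1-positive cells alone. Emcn, the gene of endomucin, had a single summit within 50 kb in the induced list (28.7 at chr3:137293361) and none in the uninduced list, the nearest being 142047 bp away. It was found in each induced MEF list without knockdown but also in uninduced MEFs, and in no uninduced knockdown list. Cdh5, which encodes VE-cadherin, and Pecam1 differed little, with 1 and 1 and with 1 and 2 summits. Myct1, which was in none of the lists of genes, had 3 induced-only summits within its promoter and body (3.19, 7.97 and 2.78) and none on the uninduced side.

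On the uninduced side, Sox17, an arterial transcription factor, had 5 uninduced-only summits within 50 kb, with scores of 2.23 to 5.18, and no induced summit of any class. Only that inside the gene (chr1:4492480, 5.18) recurred in other lists, namely the uninduced day-1 knockdown list and both induced embryoid body lists. Stab2, a scavenger receptor of sinusoidal endothelium, had 5 uninduced-only summits of 1.47 to 2.92. Icam2 and Hhex each had 2 uninduced-only summits and no induced summit of any class. Elk3 had 2 induced-only and 5 uninduced-only summits and Foxo1 1 and 4. Fli1, Ets2, Foxc1, Mef2c, Bcl6b, Robo4 and S1pr1 each had 0 and 2. The other way, 2 of 20 transcription factors, 5 of 22 surface genes and 4 of 14 receptors had more induced-only summits. Kdr, the gene of Flk1, had 1 induced-only summit at chr5:75922978 (2.28), outside the gene, and 1 uninduced-only summit at its promoter, chr5:75978308 (6.21). The first was found elsewhere in induced MEFs of day 1 and in Flk1-positive cells, and the second in 10 of the other lists.

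**Figure D4:**
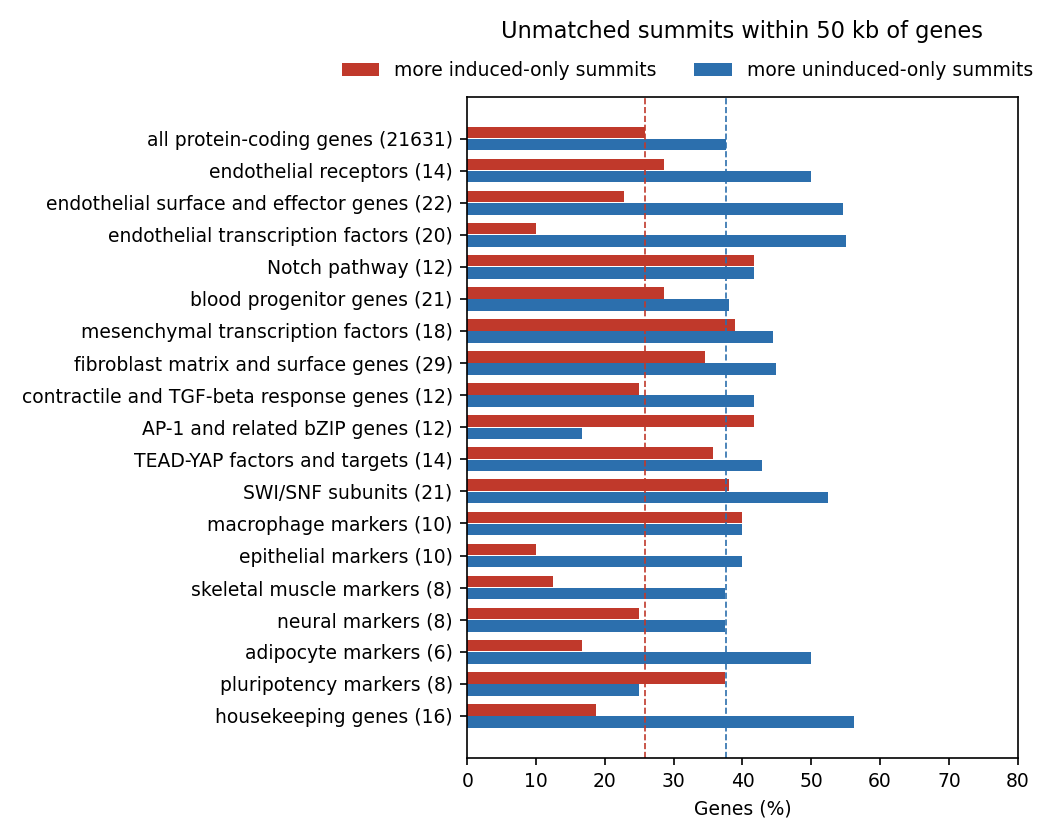
Share of genes (x axis, %) with more induced-only (red) or more uninduced-only summits (blue) within 50 kb, for all protein-coding genes and the 18 gene lists (number of genes in parentheses). Dashed lines give the values over all genes, 25.9% and 37.6%. Red is above its line and blue below it for AP-1 genes (5 and 2 of 12) and pluripotency markers (3 and 2 of 8). The reverse holds for endothelial transcription factors (2 and 11 of 20) and endothelial surface genes (5 and 12 of 22). It also holds for housekeeping (3 and 9 of 16), adipocyte (1 and 3 of 6), epithelial (1 and 4 of 10) and contractile genes (3 and 5 of 12).

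In the Notch pathway, 5 of 12 genes had more and 5 had fewer induced-only summits. Hey1, a Notch target and arterial transcription factor, had induced-only summits at its promoter (8.60, 338 bp from an uninduced summit) and inside the gene (1.75), and Rbpj, the DNA-binding partner of Notch, had 2 at an internal promoter, 306 and 458 bp from uninduced ones. Notch4, the endothelial Notch receptor, had 1 induced-only and 3 uninduced-only summits. Of the 21 blood progenitor genes 6 had more and 8 had fewer. Runx1, needed for blood emergence from endothelium, had 2 induced-only summits (14.6 and 2.78) and 0 uninduced-only, both also listed in uninduced MEFs. Spi1, the myeloid factor PU.1, had 2 and 0 and Ikzf1, a lymphoid factor, 3 and 1. Vav1, a haematopoietic exchange factor, had 0 and 4, and Tal1, a master factor of blood, 2 and 4.

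The fibroblast lists were split between both sides. Of the 18 mesenchymal transcription factors 7 had more induced-only and 8 more uninduced-only summits, and of the 29 matrix and surface genes 10 and 13, both with a median of 0. Runx2 had 5 induced-only and 2 uninduced-only summits, Prrx1 5 and 3 and Zeb2 5 and 3, whereas Twist1 had 0 and 2, both at its promoter (13.2 and 3.30). Fn1, the fibronectin gene, had 4 and 1, of which 3 lay within the gene between chr1:71643175 and chr1:71644293. Col1a2, a chain of type I collagen, had 2 and 8. Of these 8, the highest was 17.4 at chr6:4456660, which lay 316 bp from an induced summit of 21.5, and 3 lay together at chr6:4489051 to chr6:4490035 (13.9, 8.59 and 6.58). Col1a1 had 1 and 5. Contractile and TGF-beta response genes split 3 and 5 of 12.

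Over all unmatched summits, AP-1 and related bZIP genes had the opposite balance to the background, as did the pluripotency markers (3 and 2 of 8). Of the 12 AP-1 and related genes 5 had more induced-only and 2 more uninduced-only summits, with 31 induced-only and 19 uninduced-only in all. With equal numbers the split was 7 and 1, but there the background also leaned to the induced side (33.9% and 26.7% of all genes). The median difference of the list was 0 over all summits and −1 with scores of at least 10 in both lists. Fosb had 6 and 1, Batf3 5 and 1, Fosl1 4 and 1 and Junb 3 and 1. The Junb summits lay just beyond the gene at chr8:84978771 (6.95), chr8:84979486 (1.46) and chr8:84979924 (5.90), 2156 to 3309 bp from the nearest uninduced summit. Of the 15 induced-only summits at Fosb, Batf3 and Fosl1, 13 were listed in at least 1 other uninduced list, and 7 lay 266 to 333 bp from an uninduced summit. Fos had 0 and 2, and Jun 6 and 6. TEAD-YAP factors and targets split 5 and 6 of 14. Axl, a receptor kinase and YAP target, had 4 and 0, the highest (22.2) 301 bp from an uninduced summit, and Amotl2, a YAP inhibitor, had 1 and 5.

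SWI/SNF subunit genes split 8 and 11 of 21, with a median of −1. On the 11 chromosomes with the lower uninduced-only shares the median was 1, and 8 of 12 had more and 3 had fewer. The background there was 27.3% and 32.5%. These chromosomes were picked by uninduced-only share, which enters the difference, so the shift cannot be read as a trait of these genes. Smarca4 itself had 1 induced-only summit within 50 kb at chr9:21748145 (6.59), in a neighbouring gene, and at its start the summit at chr9:21616038 (17.2) had an uninduced partner at chr9:21615999 (13.7). A summit list does not measure the amount of Brg1, and the knockdown cannot be checked in it. Smarca2, which encodes the alternative ATPase Brm, had 3 and 0, all near its start and 481 to 904 bp from an uninduced summit. Arid1b had 5 and 11 and Pbrm1 0 and 5.

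Etv2 had 1 induced-only summit within 50 kb, at chr7:30639218 (4.26), outside the gene, and 4 induced summits paired with 5 uninduced ones. The lists for other cell types were short. Macrophage markers split 4 and 4 of 10, epithelial 1 and 4 of 10, skeletal muscle 1 and 3 of 8, neural 2 and 3 of 8, adipocyte 1 and 3 of 6 and pluripotency 3 and 2 of 8. Housekeeping genes split 3 and 9 of 16. Gapdh had 0 and 1 and Actb 2 and 2. Summits near fibroblast and endothelial genes occurred in both lists, as 29 of 29 fibroblast matrix genes and 14 of 14 endothelial receptors had an induced summit within 50 kb, near the 84.2% of all genes that had one, so that such counts do not tell the cell types apart.

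Over all genes, the largest differences on the uninduced side included long genes and clusters of related genes. Cntnap2, a neuronal adhesion gene of over 2 Mb on chromosome 6, had 5 induced-only and 51 uninduced-only summits, and Cdh12, a cadherin gene on chromosome 15, had 0 and 33. Galntl6 had 1 and 24 and Pde1c 3 and 24. The neighbours Gm38510, Gm7592, C130026I21Rik, Sp110 and Sp140 on chromosome 1, which share summits, had between 25 and 43 uninduced-only and between 3 and 9 induced-only summits each. On the induced side the differences were smaller. Gas8 and its neighbour Dbndd1 had 24 and 13 and 17 and 10, and Sash1 10 and 1. Pam, an enzyme that amidates peptides, had 10 and 2 with a recurrent summit at its promoter (25.4), 339 bp from an uninduced summit, and Zmiz1 had 9 and 1.

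Summits inside promoters were few. Of 21045 promoters, 348 held an induced-only and 405 an uninduced-only summit, while 5761 held a shared one. The 10 highest-scoring induced-only promoter summits, led by Zfand3 (42.1) and Mpnd (38.5), lay 274 to 385 bp from an uninduced summit, and the 10 highest uninduced-only ones, led by Pdcd10 (69.6), lay 257 to 12164 bp from an induced summit. Requiring no summit of the other day-2 list within 1 kb of the start left 119 promoters listed with induction alone (0.565%) and 228 listed without induction alone (1.08%). Of the 111 induced-only summits behind the 119, 71 (64.0%) were also in uninduced MEFs and 73 (65.8%) in induced MEFs of day 1. Among the knockdown lists, 53 (47.7%) were in that of day 0 and 47 (42.3%) in the uninduced one of day 1. Only 24 (21.6%) were in the induced knockdown list of day 1, which held 43 of the 209 uninduced-only summits (20.6%) behind the 228. Most of the 119 are therefore not new to induction. Without any summit in the 4 other uninduced fibroblast lists, 36 promoters remained, and 91 uninduced-only promoters had none in the 6 other induced lists.

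The letters of ETS sites were counted in each of these classes of promoters. A total of 13 motifs were searched on both strands, and a match is a description of letters and not of binding. AACAGGAA was present in 7 of the 36 (19.4%, 8.19 to 36%), in 1 of the 91 mirrored promoters (1.10%, 0.0278 to 5.97%) and in 2.41% of all promoters. No test was made, the motif is 1 of 13 searched, and these classes were set after the data were seen. Their filters differ as well, with 4 other lists excluded for the 36 and 6 for the 91. With summits within 500 bp of the start in place of those inside the promoter, the same classes had it in 8 of 77 (10.4%, 4.59 to 19.4%) and 8 of 276 (2.90%, 1.26 to 5.63%), and these intervals overlap. Among the 119 promoters listed with induction alone on day 2 it was in 10 (8.40%, 4.10 to 14.9%), and among the 228 listed without induction alone in 2 (0.877%, 0.106 to 3.13%). Among all 348 and 405 it was in 12 (3.45%) and 4 (0.988%), and among promoters with an induced-only summit within 500 bp of the start in 2.35%, near the share of all promoters. The 10 include the neighbouring copies Nlrp1a and Nlrp1b and the near-copies Gm14139 and Gm14124, which are not independent, although the intervals count them so. Their summits scored 2.78, 2.28, 2.28 and 1.36, and that of Fam171a1 1.65, against a list minimum just above 1.3. The others scored between 4.73 (Hrh1) and 16.2 (Gimap6). The 7 of the 36 are drawn from these 10 without Gimap6, so near-copies or low-scoring summits are among them too. AGGAAG, which overlaps the composite where AACAGGAA is followed by G, was in 58.3% of the 36 (40.8 to 74.5%), 36.3% of the 91 (26.4 to 47.0%) and 34.1% of all promoters.

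Other letters moved with these classes. The median GC content was 50.2% in the 36, 57.0% in the 91 and 56.7% in all promoters, and the GC box GGGCGG was in 13.9%, 42.9% and 46.7%. CCGGAAG, the form of the ETS site common in housekeeping promoters, was in 2.78% of the 36, 3.30% of the 91 and 11.7% of all promoters. The AP-1 motif TGANTCA was in 16.7% of the 36 and 17.6% of the 91, against 7.04% of all promoters. AGATAA, the GATA motif, was in 22.2% of the 36 (10.1 to 39.2%), 8.79% of the 91 (3.87 to 16.6%) and 9.68% of all promoters. The part of base composition in these shares was not tested.

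**Figure D5:**
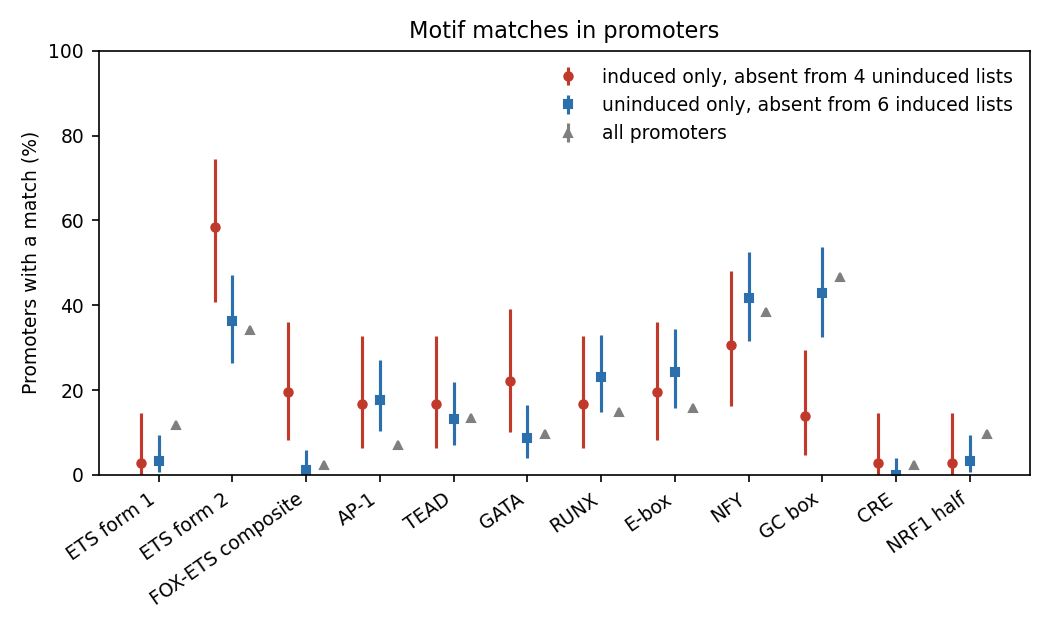
Share of promoters (y axis, %) holding a match on either strand to 12 of the 13 motifs searched (x axis; ETS form 1 is CCGGAAG, ETS form 2 AGGAAG and FOX-ETS composite AACAGGAA), with exact 95% intervals. Red circles are the 36 promoters listed with induction and in no uninduced fibroblast list, blue squares the 91 mirrored ones and grey triangles all 21045. For the composite the red point is at 19.4% (8.19 to 36%) and the blue one at 1.10% (0.0278 to 5.97%), with near-copies among the red promoters and no test made. For the GC box the red point (13.9%) is below the blue one (42.9%).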

How the data were processed

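Open chromatin was profiled by ATAC-seq in 4 labelled samples, 2 replicates each of induced and uninduced Brg1-knockdown MEFs on day 2. The submitters' processing notes name Bowtie2 2.2.4, MACS2, HOMER and the build mm10. Trimming, duplicate handling, the transposase shift, a blacklist and how replicates were combined are not given in the sources used here. The deposited score column holds the −log10 of the q value of each summit, as the authors' peak caller wrote it. Each group has 1 list of summits, so no comparison has replicate error.

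Only chromosomes 1 to 19 and X entered, leaving out 88 induced and 70 uninduced summits on Y and the mitochondrial genome. Partners lay within 250 bp, promoters within 1 kb of a RefSeq start (or a gene end where none was given), and gene counts used 50 kb around a gene interval. RefSeq tables of GRCm38.p6 gave 21631 protein-coding genes and 21045 promoters of 17274 of them. All 261 symbols of the 18 gene lists were found, and 182 had a promoter. No genome was used, so sequence around distal summits is not reported. Genes eligible for naming were, for every list, 3 at each end of the induced-only minus uninduced-only count, and the 10 highest and 10 lowest over all genes. The genes of the highest-scoring unmatched and promoter summits were eligible too, and Actb, Etv2, Gapdh, Kdr and Smarca4 were always named. Many eligible genes are not described in the text, and no rule set which were, so the named genes are not a balanced selection. Any other gene was named after its values were seen. The members and lists were chosen with earlier results of these data known. Alternatives changed the partner distance, list length, score minimum, gene window and promoter distance, and a further set, described as chosen after seeing the data, left out bins of extreme signal or chromosomes. Matching was tested on simulated data. Figures used matplotlib 3.10.9, intervals scipy 1.17.1 and tables pandas 2.3.3 with numpy 2.4.6, under Python 3.11.15.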

Additional observations from a re-analysis of the deposited data

Results flagged for a closer look

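The balance of unmatched summits with and without doxycycline had opposite signs on 2 days of the knockdown series. On day 2 induced-only minus uninduced-only summits gave −7077, and on day 7 the same difference gave 2265. Each value compares 1 list with 1 list, and the difference between the days was not tested. It has the sign of the difference in list length on both days, as the induced list held 37772 and the uninduced list 44493 summits on day 2, and the induced list 13644 and the uninduced list 11188 on day 7.

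Summits outside the chromosomes used were also deposited. Chromosome Y and the mitochondrial genome together held 88 summits of the induced list and 70 of the uninduced list. They entered no comparison.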

How the results depend on the processing

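No paired analysis was possible because both replicates of a group share 1 deposited list, and for the same reason no replicate could be left out. Counts of induced-only summits were 18466 with partners within 100 bp, 6945 within 1000 bp, 3095 with scores of at least 10 and 2432 among the 10000 highest. Uninduced-only counts were 5711 and 2493 under the last 2 settings. The difference of −7077 became −420 with equal numbers, −2616 with scores of at least 10 and −61 among the 10000 highest. The promoter share of induced-only minus uninduced-only summits, 5.53 points, turned to −0.81 within 1000 bp and to −1.60 with scores of at least 10. It was 3.30 with promoters within 500 bp, 6.48 and 2.08 with partners within 100 and 500 bp, 3.54 with equal numbers and 2.84 with 1 summit per peak. The share of summits present in the day-1 induced knockdown list, induced-only minus uninduced-only, was 13.6 points. That difference was 12.6 within 1000 bp, 10.4 with equal numbers and 6.69 among the 10000 highest. For presence in the list of Flk1-positive cells the difference was 19.5 points, with 17, 22.0 and 24.2 for partners within 100, 500 and 1000 bp. It was 16.5 with equal numbers, 21.9 with scores of at least 10, 22.2 with 1 summit per peak and 13.9 among the 10000 highest. Genes with more induced-only summits, 5592 of 21631 (25.9%), were 2776 with scores of at least 10. On 11 chromosomes they were 3442 of only 12622 genes, a share of 27.3%. Genes with more uninduced-only summits, 8138 (37.6%), were 5115 within 10 kb and 4096 (32.5%) on 11 chromosomes. The composite letters were in 3.45% of promoters with an induced-only summit, 2.35% with the summit within 500 bp of the start, 8.40% without an uninduced summit within 1 kb and 19.4% when absent from 4 lists, and AGGAAG in 35.1%, 33.9%, 44.5% and 58.3%. Of 180 medians of gene lists 122 stayed, 57 moved and 1 reversed, that of SWI/SNF genes, which was 1 on 11 chromosomes and −1 on all. The AP-1 median was at or above 0 in 9 of 10 settings and −1 with scores of at least 10. The cause of these moves was not tested. The 1000 bp, 11-chromosome, promoter-class and extreme-signal settings were chosen after seeing the data. Unknown read depth limits every count of unmatched weak summits.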
